A study of Mus musculus with 8 samples.

Results

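Cadherins and protocadherins are the adhesion molecules by which neural cells recognise and hold one another. They were chosen by gene symbol (Cdh or Pcdh followed by a number, and the alpha, beta and gamma protocadherin isoforms), which gave 93 of the 53507 gene rows: 23 cadherins, 12 single protocadherins and 58 clustered protocadherin isoforms. RNA was sequenced from tdTomato+ cells of the mouse brain, labelled as progenitor cells, in 8 libraries. The RNA input was 400 picograms (pg) per library. The groups of 2 libraries each were wild-type E13, wild-type E15, P12 after rearing in normal air (normoxia) and P12 after chronic hypoxia. Hypoxic pups were kept at 10% oxygen for 8 days, from P3 to P11, and control and hypoxic foster mothers were exchanged at P6 and P9. The labels give "wt" only for the embryos, and do not say which line or promoter drives tdTomato or whether replicates came from separate animals, so p-values measure only the spread between these libraries.

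Classical cadherins bind the same or a related cadherin on the neighbouring cell through their outer repeats and hold the actin cytoskeleton through catenins inside the cell. Type I members such as N-cadherin (Cdh2) hold the ventricular surface of the cortex together, and type II members mark particular neuron groups and connections. Protocadherins lack the catenin-binding tail. The single delta protocadherins act in axon growth and cell sorting, and the clustered isoforms, of which each neuron uses a small set chosen by promoter, let a neuron tell its own branches from those of others.

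Total counts were 36252027 to 47084796 per library. The P12 libraries were less alike than the embryonic ones: replicates correlated across the 19936 tested genes, which are not independent replicates, at r = 0.82 in normoxia and 0.70 in hypoxia, against 0.98 and 0.99 at E13 and E15. A gene with at least 10 CPM (counts per mega-count of library size after normalisation) in 1 replicate and under 1 CPM in the other was rare in the embryo (0.0201% of tested genes at E13 and 0.00502% at E15) but made up 8.17% in normoxia and 15.1% in hypoxia. Among the 93 members this held for 14 in normoxia and 7 in hypoxia. Marker genes also moved with age: the summed level of 8 neuron markers was 2617 to 2984 CPM in the embryo, 851 and 967 in normoxia and 359 and 687 in hypoxia. Of these 8, 3 had positive and 5 negative log2 differences from the embryo in normoxia, and 0 and 8 in hypoxia. Of 8 radial glia markers, which had counts in every library, the sum was 242 to 323 CPM in the embryo, below that of the neuron markers, and 3823 to 5071 at P12. Here 6 had positive and 2 negative log2 differences from the embryo in normoxia, and 7 and 1 in hypoxia. Intermediate progenitor markers (5 genes) summed to 531.5 to 1088 CPM in the embryo and 4571 to 6719 at P12. Of these, 4 had negative and 1 a positive log2 difference from the embryo in each P12 group. For 7 astrocyte markers it was 5.39 to 12.5 CPM in the embryo and 6662 to 9224 at P12. Between the P12 groups, oligodendrocyte markers (5 genes) summed to 1157 and 1969 CPM in hypoxia against 201 and 572 in normoxia. Of their log2 differences 3 were positive and 2 negative. Oligodendrocyte progenitor markers (5 genes) summed to 522 and 768 against 251.5 and 202, with 4 positive and 1 negative. Mural cell markers (5 genes, mainly Rgs5, with Kcnj8 and Vtn at 0) summed to 1275 and 1023 against 2523 and 1978, with 1 positive and 2 negative. No marker of these lists was called between the P12 groups. Erythroid markers (5 genes) summed to 2237 and 7293 CPM at E13, 20.1 and 85.5 at E15 and at most 4.31 at P12. The part these shifts play in the results was not tested. In bulk RNA, fewer cells that express a gene and less RNA per cell cannot be told apart.

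The promoters of 4 members are shown because these genes, outside the clusters, hold calls described below: Cdh8 had 2 counts in all after hypoxia, Pcdh20 was at or near 0 in both P12 groups, and Pcdh10 and Pcdh17 were higher at P12 than in the embryo. Each is the 300-base RefSeq window on GRCm38.p6 spanning the annotated start, written 5′ to 3′ on the gene's strand. Capitals mark the core of the hypoxia response element, the motif bound by hypoxia-inducible factors (ACGTG or GCGTG, searched on both strands).

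Cdh8 (chr8:99416422-99416721, minus strand): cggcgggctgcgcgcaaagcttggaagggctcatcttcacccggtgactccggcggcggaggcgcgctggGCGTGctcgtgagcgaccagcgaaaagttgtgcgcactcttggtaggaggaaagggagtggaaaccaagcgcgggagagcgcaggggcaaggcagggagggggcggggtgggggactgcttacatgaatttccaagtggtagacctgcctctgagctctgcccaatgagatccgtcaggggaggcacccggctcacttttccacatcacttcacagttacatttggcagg

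Pcdh20 (chr14:88471347-88471646, minus strand): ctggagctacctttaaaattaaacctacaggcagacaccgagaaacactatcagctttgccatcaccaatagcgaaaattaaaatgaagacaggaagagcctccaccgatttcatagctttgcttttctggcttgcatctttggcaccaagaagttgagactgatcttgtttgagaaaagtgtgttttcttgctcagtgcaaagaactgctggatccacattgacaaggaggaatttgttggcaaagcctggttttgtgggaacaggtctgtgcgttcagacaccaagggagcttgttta

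Pcdh10 (chr3:45378148-45378447, plus strand): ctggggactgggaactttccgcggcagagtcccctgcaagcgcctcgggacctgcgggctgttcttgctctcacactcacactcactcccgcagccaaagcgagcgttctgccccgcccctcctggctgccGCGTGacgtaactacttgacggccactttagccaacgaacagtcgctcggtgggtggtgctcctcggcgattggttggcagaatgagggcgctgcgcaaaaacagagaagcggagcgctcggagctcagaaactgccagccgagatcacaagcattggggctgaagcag

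Pcdh17 (chr14:84443313-84443612, plus strand): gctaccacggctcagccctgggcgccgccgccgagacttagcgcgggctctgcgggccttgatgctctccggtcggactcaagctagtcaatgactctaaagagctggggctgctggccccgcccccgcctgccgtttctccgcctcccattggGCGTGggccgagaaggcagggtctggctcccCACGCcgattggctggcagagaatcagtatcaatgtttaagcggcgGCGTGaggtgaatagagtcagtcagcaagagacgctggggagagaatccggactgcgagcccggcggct

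The Cdh8 and Pcdh10 windows hold 1 core each, the Pcdh17 window 3 and the Pcdh20 window 0. A core was found in 15 of 25 member windows (22 genes matched; 60.0%) and in 43.8% of all 32851 promoter windows. Members on chromosome 18, among them Cdh2, Pcdh1, Pcdh12 and the clustered isoforms, were left out of the member windows. The set of all windows kept that chromosome. GC content was 62.3% for Cdh8 and for Pcdh10, 65.0% for Pcdh17 and 43.7% for Pcdh20, against a median of 60.3% over the member windows and 52.7% over all windows, and CpG counts had medians of 14 and 7. The core itself contains a CpG, and the part of base composition in the shares was not tested. A match describes the letters of these windows and is not evidence of binding.

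Among the 23 cadherins, 15 passed the filter on low counts: 2 of 5 type I, 10 of 13 type II and 3 of 5 others. Cdh1, Cdh3, Cdh9, Cdh15, Cdh16, Cdh19, Cdh22 and Cdh26 did not. Per kilobase of exon not shared with another gene, Cdh2 was the highest cadherin in all 4 groups, with mean levels of 38.6 CPM per kb at E13, 54.0 at E15, 14.9 in normoxia and 28.2 in hypoxia. Cdh4 (R-cadherin), the other type I member measured, followed at 8.87, 15.96 and 7.73 CPM per kb at E13, E15 and in normoxia.

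Cdh8 was almost undetected after hypoxia. This type II cadherin, known for its place in cortical and striatal circuits, lies at chr8:99024471-99416471 on the minus strand. Its level was 54.4 and 24.2 CPM at E13, 114 and 109 at E15, and 39.0 and 48.0 in normoxia, but a single count was found in each hypoxic library. All 6 other libraries stood far above both hypoxic ones. Against normoxia the summed counts were 2 and 2701, a ratio of 1233 lower with a 95% counting interval of 341 to 10190 (edgeR quasi-likelihood test, adjusted p = 0.0183). Cdh8 was called in 10 of 17 alternative analyses, with adjusted p from 4.26e-16 to 0.648, and not when any 1 embryonic library was left out or when the 4 P12 libraries were fitted alone. Nor was it called with limma-voom or with replicate number as a block. The log2 fold change stayed between -10.27 and -9.68.

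In the comparison of hypoxia with normoxia, 2 members were called lower and 0 higher by edgeR, against a background of 3.02% of tested genes, 2.82% lower and 0.196% higher. The 2 were Cdh8 and Pcdhb9, a beta-cluster isoform. At an unadjusted p under 0.05 there were 24 lower and 3 higher of 81 tested members, against 2689 lower (13.49%) and 943 higher (4.73%) of all 19936 tested genes. Without normoxic replicate 1 the lower calls numbered 13, without hypoxic replicate 1 or 2 they numbered 5, and without any 1 of the 4 embryonic libraries they numbered 0.

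Several other type II cadherins had 1 high and 1 low replicate at P12. Cdh10 stood at 32.8 and 0.185 CPM in the hypoxic pair against 0.286 and 14.96 in the normoxic. Cdh20 showed the same split, at 65.96 and 0.148 CPM in the hypoxic pair against 0.222 and 26.5 in the normoxic, and was at most 1.31 CPM in the embryo. In both genes 1 library of each P12 group was near 0, so the groups overlapped. Cdh6 was at 0.349 and 21.6 CPM in normoxia and at 0.0336 and 0.148 in hypoxia, and did not pass the test (adjusted p = 0.198 in edgeR). Cdh12 had 21.1 CPM in normoxic replicate 2 and at most 0.0635 in the other P12 libraries (edgeR adjusted p = 0.210), and Cdh18 had counts at P12 in normoxic replicate 1 alone, with 6.41 CPM. Cdh24 ranged from 0.254 to 9.61 CPM over the P12 libraries.

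Cdh11, a mesenchymal and neural type II cadherin, had similar levels at E13 (56.7 and 50.6 CPM) and in normoxia (60.3 and 55.6). It was lower at E15 (19.6 and 20.8 CPM) and at 21.5 and 40.6 CPM in hypoxia, where the difference from normoxia was -0.90 on the log2 scale (SE 0.51, edgeR adjusted p = 0.418). The hypoxic and normoxic values did not overlap.

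With age, N-cadherin RNA fell in normoxia. Cdh2 was at 331 and 293 CPM at E13 and 438 and 433 at E15, against 127 and 114 in normoxia, a fall by 1.61 on the log2 scale (SE 0.37, edgeR adjusted p = 0.0361) that was not called without either normoxic or any 1 embryonic library. Nor was this fall called with relative log expression factors, without the low-count filter or with replicate number as a block. In hypoxia Cdh2 was at 139 and 315 CPM, so 1 replicate lay with the normoxic pair and the other between the E13 replicates. The difference of hypoxia from the embryo was -0.70 (SE 0.35, edgeR adjusted p = 0.191) and that from normoxia 0.92 (SE 0.40, edgeR adjusted p = 0.298). Cdh4 was 70.5 and 58.2 CPM at E13, 122 and 109 at E15, 73.5 and 38.8 in normoxia and 45.9 and 11.8 in hypoxia, and passed no test.

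Cdh7, a type II cadherin, was an embryonic gene in these libraries. It was highest at E13 (27.1 and 36.0 CPM), lower at E15 (5.04 and 5.34 CPM), and had 1 count over both normoxic and 2 over both hypoxic libraries. The ratio to the embryo was 1118 lower in normoxia (95% counting interval 200.6 to 44170, edgeR adjusted p = 0.0238) and 510.5 lower in hypoxia (141.2 to 4216, edgeR adjusted p = 0.0221), and both calls were lost without any 1 embryonic library, the normoxic one also without either normoxic library. With replicate number as a block the normoxic call was lost too, and with limma-voom the hypoxic one. VE-cadherin (Cdh5), the cadherin of endothelial junctions, was at 0.129 to 1.21 CPM in the embryo and had 0 counts in all 4 P12 libraries, at least 5.93-fold lower in hypoxia (edgeR adjusted p = 0.0474) and at least 6.51-fold lower in normoxia (edgeR adjusted p = 0.0577). Pecam1 and Cldn5, endothelial markers, were likewise at 0 in every P12 library, but not all such markers fell. Of 5 endothelial markers tested, 2 had positive and 3 negative log2 differences from the embryo in normoxia, and 1 and 4 in hypoxia. Over 7 endothelial markers the sum was 6.91 to 12.4 CPM in the embryo and 0.0740 to 10.9 at P12. The highest P12 sum, in normoxic replicate 1, lay within the embryonic range. Cdh6 and Cdh8 were the other cadherins called lower in hypoxia than in the embryo, which made 4 of 15 tested (12.9% of all tested genes). Of the 15 log2 differences 13 were negative, against 11117 of all 19936 tested genes. Among these, Cdh17 and Cdh18, at 0 counts in hypoxia, had SEs of 4009 and 8056. Cdh6 had 5 counts against 5263, a ratio of 258.7 lower (110.8 to 797.1, edgeR adjusted p = 0.0462). The Cdh5 and Cdh6 calls were lost without either hypoxic or any 1 embryonic library, and that of Cdh5 also without normoxic replicate 1. Both were also lost with limma-voom. For Cdh8 the ratio to the embryo was 2174 lower (601.8 to 17950, edgeR adjusted p = 0.000825), a call that held in 16 of 17 alternatives, limma-voom being the exception.

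Cdh13 (T-cadherin), which is anchored by a lipid and has no cytoplasmic tail, was higher in every P12 library than in any embryonic one: 70.1 and 13.6 CPM in normoxia, 16.7 and 41.5 in hypoxia, 10.6 and 8.63 at E13 and 1.64 and 3.95 at E15. Against the embryo the log2 differences were 3.01 in normoxia (SE 0.84, edgeR adjusted p = 0.0583) and 2.49 in hypoxia (SE 0.83, edgeR adjusted p = 0.0755). Cdh23, a hair-cell tip-link cadherin, was at 0.143 to 0.898 CPM in the embryo and Cdh17 at 0.863 and 0.788 CPM at E15; both had 0 counts at P12.

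**Figure D1:**
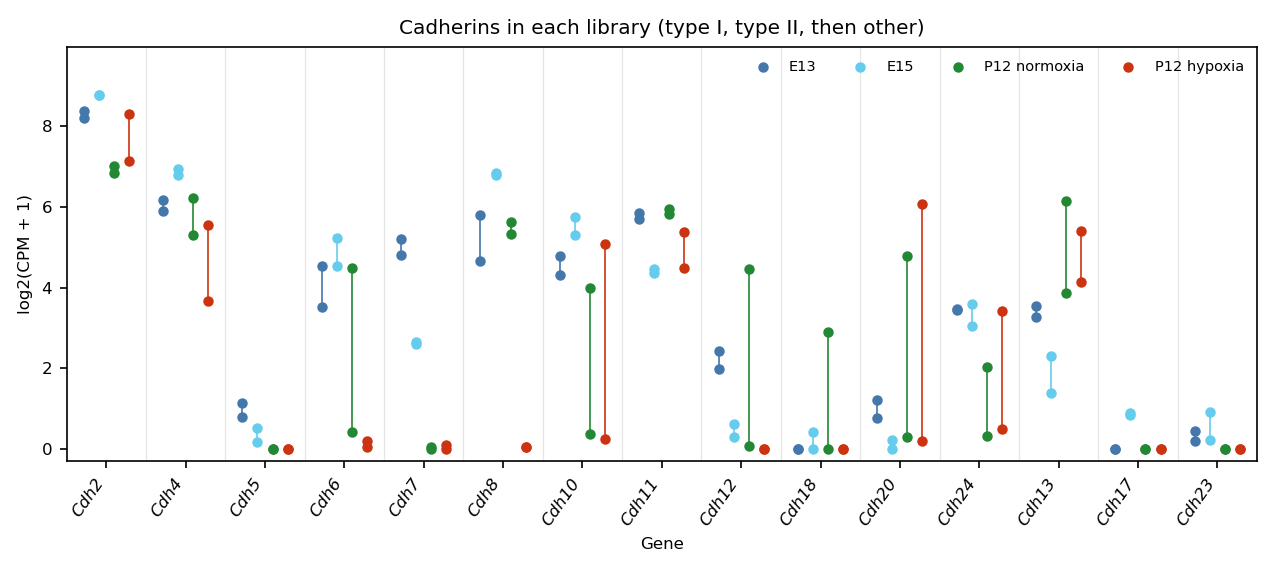
Levels of the 15 cadherins that passed the filter, as log2(CPM + 1) on the vertical axis, with 1 point per library and a line joining the 2 replicates of a group. Cdh8 is near 0 only in the hypoxic pair, and the long lines of Cdh10 and Cdh20 join P12 replicates that differ widely.

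All 12 single protocadherins passed the filter. In the embryo the highest per kilobase was Pcdh9 at E13 (18.7 CPM per kb) and Pcdh8 at E15 (40.9 CPM per kb). At P12 it was Pcdh7, with mean levels of 36.4 CPM per kb in normoxia and 54.5 in hypoxia.

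Pcdh10 rose from embryo to P12 in both conditions. This delta-2 protocadherin, which links to actin regulators and guides axons, was at 17.4 and 15.2 CPM at E13, 10.3 and 10.0 at E15, 124 and 40.3 in normoxia, and 106 and 133 in hypoxia. Every P12 library stood above every embryonic one. The rise was 2.68 on the log2 scale in normoxia (SE 0.50, edgeR adjusted p = 0.0200) and 3.21 in hypoxia (SE 0.51, edgeR adjusted p = 0.00869). Neither was called without any 1 embryonic library, nor the normoxic rise without normoxic replicate 1. With replicate number as a block the normoxic rise was not called either. Hypoxia and normoxia, whose values overlapped, differed by 0.54 (SE 0.60, edgeR adjusted p = 0.762).

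Pcdh7 (delta-1) was at 46.7 to 69.5 CPM in the 4 embryonic libraries, 436 and 173 in normoxia, and 147 and 766 in hypoxia. It was higher than the embryo in all 4 P12 libraries, and the rise of 3.06 in hypoxia passed the test (SE 0.67, edgeR adjusted p = 0.0244) while the 2.48 of normoxia did not (SE 0.67, edgeR adjusted p = 0.0530). Without hypoxic replicate 2, the library with 766 CPM, or any 1 embryonic library the hypoxic call was lost. Pcdh17, a delta-2 member of corticobasal ganglia synapses, was at 24.2 and 17.5 CPM at E13, 11.5 and 10.4 at E15, 74.6 and 63.4 in normoxia and 21.1 and 40.9 in hypoxia. It rose in normoxia by 2.19 (SE 0.47, edgeR adjusted p = 0.0301), a call lost without either normoxic or any 1 embryonic library. The call was also lost without the low-count filter and with replicate number as a block. In hypoxia the difference from the embryo was 1.04 (SE 0.47, edgeR adjusted p = 0.156), and the hypoxic values overlapped with E13. Both hypoxic values lay below both normoxic ones, by -1.15 on the log2 scale (SE 0.57, edgeR adjusted p = 0.350).

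Pcdh20, a single protocadherin outside the delta groups, was at or near 0 at P12. Its level was 9.32 and 3.42 CPM at E13 and 44.5 and 38.1 at E15, against 0 counts in both normoxic libraries and 1 in each hypoxic library. It was at least 247-fold lower than the embryo in normoxia (edgeR adjusted p = 0.00687) and 689.7 lower as a ratio of counts in hypoxia (190.9 to 5697, edgeR adjusted p = 0.00811). Both calls were lost with limma-voom, and without either E15 library. Pcdh18 (delta-2) was at 38.8 to 82.8 CPM in the embryo and had 1 count over both normoxic libraries, a ratio of 3621 lower (649.8 to 143000, edgeR adjusted p = 0.0499), a call lost without either normoxic or any 1 embryonic library. The call was also lost with limma-voom, without the low-count filter and with replicate number as a block. In hypoxia Pcdh18 was at 39.5 CPM in replicate 1, within the embryonic range, and at 0.111 in replicate 2. The hypoxic replicates were thus far apart, and hypoxia against normoxia gave an edgeR adjusted p of 0.175.

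Other delta members split in the hypoxic pair in the same way. Pcdh11x was at 104 and 0.629 CPM in hypoxia against 13.3 and 19.9 in normoxia, and Pcdh19, the gene of an X-linked epilepsy in humans, at 58.9 and 0.259 against 47.0 and 5.90. Pcdh15, a tip-link protocadherin, was high in the other replicate, at 0.0336 and 58.4 CPM in hypoxia against 17.9 and 21.9 in normoxia. Pcdh8, which regulates synaptic N-cadherin, was at 1.35 and 66.3 CPM in hypoxia, below 134 and 99.8 in normoxia, with a log2 difference of -1.79 (SE 1.45, edgeR adjusted p = 0.614). Pcdh9 (delta-1) was even across P12, at 131 and 86.9 CPM in hypoxia against 158 and 107 in normoxia. Pcdh1 and Pcdh12 stayed at or under 2.35 CPM in every library.

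**Figure D2:**
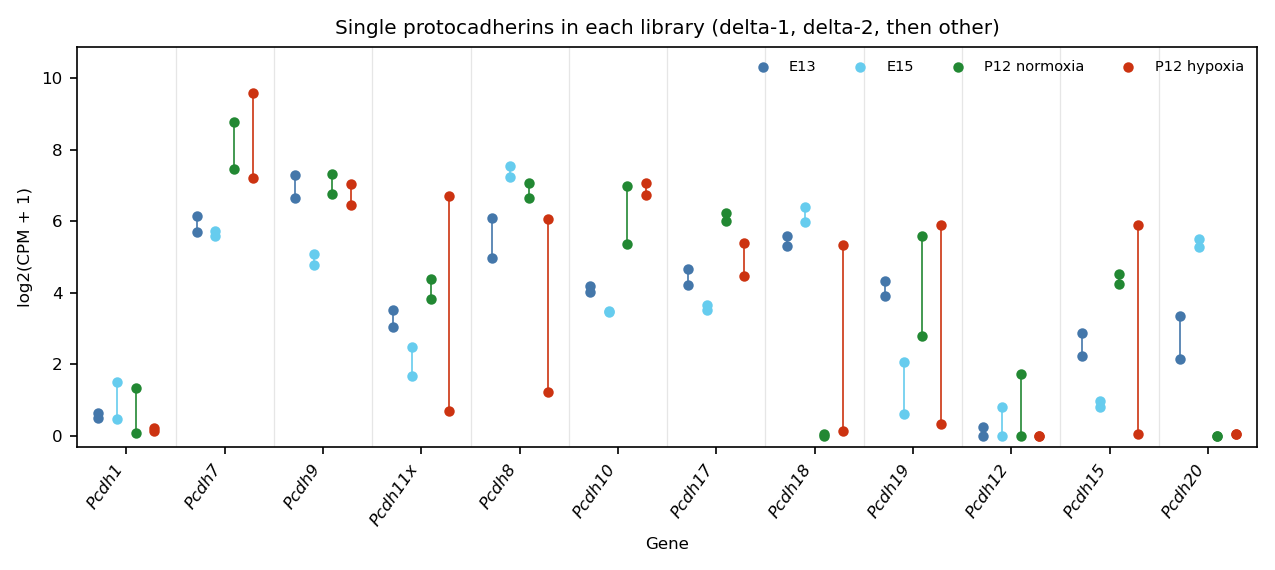
Levels of the 12 single protocadherins as log2(CPM + 1), with 1 point per library and a line joining the 2 replicates of a group. Pcdh10 is higher in all P12 libraries than in the embryo, Pcdh20 is near 0 at P12, and Pcdh11x, Pcdh15, Pcdh18 and Pcdh19 each have 1 high and 1 low hypoxic replicate.

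The clustered isoforms lie side by side on chromosome 18 in the order alpha, beta and gamma, 14, 22 and 22 of them here. Isoforms of the alpha and of the gamma cluster share their last exons: of the 13 annotated alpha isoforms all share exon bases with other genes, as do all 22 gamma isoforms, with a median of 46.4% and 54.7% of exon bases unshared, against 3 of 22 beta isoforms sharing any. How reads in shared exons were counted is not given in the sources used here. Pcdha4 and Pcdhga10, with 7.0% and 0.0% of their bases unshared, had 0 counts in every library.

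In the embryo most isoforms were detected, at levels from 0 to 30.7 CPM. Of 58 isoforms, 48 to 52 had at least 10 counts in each embryonic library (82.8% to 89.7%), close to the 86.0% to 89.1% of all tested genes. The highest, Pcdhgc3, held 7.49% to 10.2% of the summed cluster level. Pcdhgc3 is a C-type isoform, a kind that is not chosen at random but used broadly, and stood at 16.4 and 17.5 CPM at E13 and 25.8 and 30.7 at E15. The alpha cluster was led in each embryonic library by the C-type Pcdhac2, at 2.73 to 8.44 CPM. Replicates correlated over the 58 isoforms, which share libraries and exons, at r = 0.92 (E13) and 0.87 (E15).

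At P12 fewer isoforms were detected in each library. At least 10 counts were found for 9 and 30 isoforms in normoxia and 8 and 6 in hypoxia, that is 15.5%, 51.7%, 13.8% and 10.3% of the 58, against 69.5%, 79.2%, 63.0% and 58.0% of all tested genes in the same libraries. The isoforms also started lower: their median embryonic level was 3.31 CPM against 7.78 for all tested genes. In normoxic replicate 1 a single beta isoform, Pcdhb9, held 74.4% of the summed cluster level, while in normoxic replicate 2 the highest isoform, Pcdhgc5, held 7.44%. Over the 58 isoforms the normoxic replicates correlated at r = 0.34 and the hypoxic at r = 0.71.

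In hypoxia both libraries were dominated by 1 isoform, Pcdhgc4, the C-type gamma isoform known in mice to be needed for neuron survival. It was at 61.4 and 77.5 CPM in hypoxia, 0.254 and 15.4 in normoxia, 7.05 and 6.36 at E13 and 8.26 and 11.2 at E15. Both hypoxic libraries stood above all 6 others. It held 58.7% and 74.9% of the summed cluster level in hypoxia, 0.299% and 6.43% in normoxia and 3.20% to 3.73% in the embryo. The ratio of counts was 8.91 against normoxia (95% counting interval 8.10 to 9.81) and 8.33 against the embryo (7.89 to 8.81), but the test across replicates was not passed, with log2 differences of 3.14 (SE 1.60, edgeR adjusted p = 0.364) and 3.10 (SE 1.24, edgeR adjusted p = 0.117). Without Pcdhgc4, the clusters summed to 43.2 and 26.0 CPM in hypoxia, against 84.6 and 225 in normoxia and 185 to 288 in the embryo. Pcdhgb6 was the second isoform shared by the hypoxic pair, at 11.3 and 13.1 CPM, close to the 11.7 to 14.0 CPM of the embryo and above the 0.857 and 2.61 of normoxia (log2 difference from normoxia 2.81, SE 0.85, edgeR adjusted p = 0.186). The other isoforms over 5 CPM were found in 1 hypoxic library each: Pcdhb14 and Pcdhga11 reached 21.0 and 6.39 CPM in replicate 1 and 0 in replicate 2, and Pcdhga5 reached 6.88 in replicate 2 and 0 in replicate 1.

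**Figure D3:**
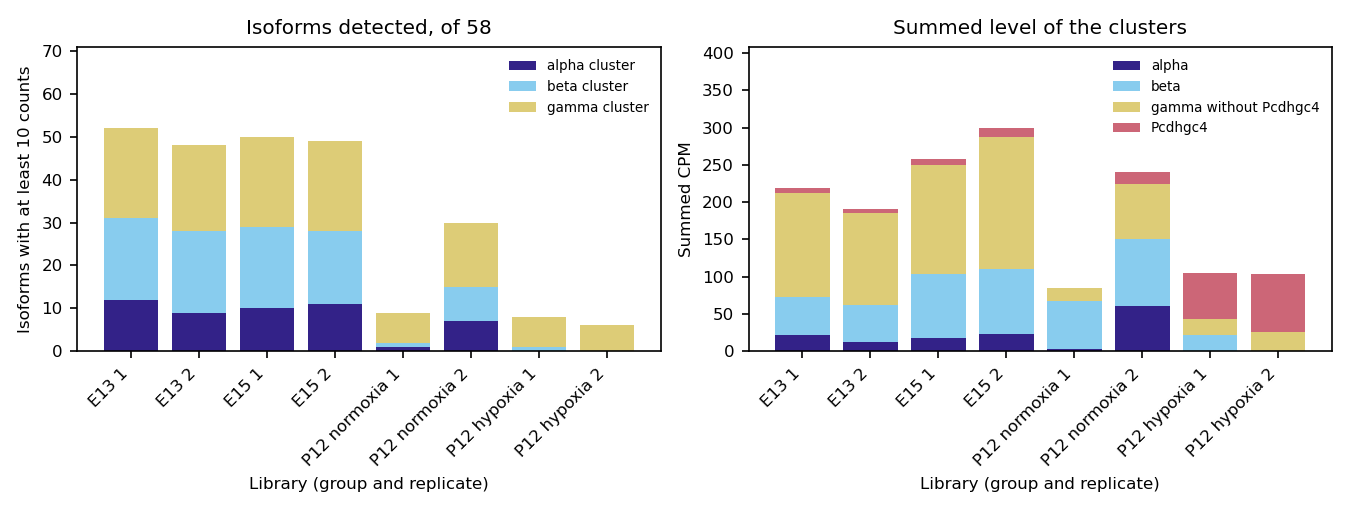
Left, number of clustered isoforms with at least 10 counts in each library, stacked by cluster. Right, their summed CPM per library, with Pcdhgc4 drawn apart from the gamma cluster. Pcdhgc4 makes up 58.7% and 74.9% of the hypoxic bars.

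The alpha cluster was nearly absent in hypoxia, with 2 counts over all 14 isoforms in each library. Its summed level was 2.92 and 60.6 CPM in normoxia, 21.4 and 11.7 at E13 and 18.3 and 22.9 at E15. The beta cluster summed to 21.2 and 0.259 CPM in hypoxia, nearly all of the first being Pcdhb14, against 64.2 and 89.4 in normoxia. Pcdhb9, the beta call between conditions, had 63.1 and 14.2 CPM in normoxia and 3 counts over both hypoxic libraries, a ratio of 737.8 lower (252.2 to 3580, edgeR adjusted p = 0.0311). It was called in 9 of 17 alternatives, and not without hypoxic replicate 2 or any 1 embryonic library. Nor was it called with limma-voom, with replicate number as a block or with the P12 libraries alone. Pcdhga12, at 3.21 and 3.81 CPM in normoxia and 1 count over the hypoxic pair, came next (edgeR adjusted p = 0.0544). The median log2 difference of hypoxia from normoxia over the 54 isoforms tested was -4.72, against 0.0 over all tested genes, and 20 had every hypoxic library below every normoxic one, 4 the reverse. Over all tested genes those shares were 20.1% and 13.1%. In normoxic replicate 1 only 9 isoforms had at least 10 counts, so most of the 20 had fewer counts than that there. Pcdhac1, for example, had 1 and 304 counts in normoxia and 0 in hypoxia.

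The remaining C-type isoforms were found at P12 mainly in normoxic replicate 2. Pcdhgc3 was at 0.508 and 13.1 CPM in normoxia and 0.336 and 2.59 in hypoxia. Pcdhgc5, at most 0.680 CPM in the embryo, was at 0.349 and 17.9 in normoxia and 0.0336 and 0.185 in hypoxia. Pcdhac1 and Pcdhac2 were at 9.91 and 11.9 CPM in normoxic replicate 2 and at most 0.222 in the other P12 libraries. Pcdhb13 was at 15.4 CPM in that library and at 0.143 or less in the other 7.

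Both P12 groups were set against the mean of the embryonic groups, and these comparisons share the embryonic libraries. In normoxia 3 members were called higher and 16 lower (background 17.8%, with 12.1% higher and 5.68% lower), and in hypoxia 2 higher and 27 lower (background 26.1%, with 13.2% and 12.9%). Of the clustered isoforms, 1 was higher and 12 lower in normoxia, and 0 higher and 22 lower in hypoxia, of 54 tested. The median log2 difference of these 54 was -3.14 in normoxia and -7.52 in hypoxia, against -0.04 and -0.43 over all tested genes. The low-count filter favours such falls: 48 to 52 of the 58 isoforms had at least 10 counts in each embryonic library, and 6 to 30 in each P12 library. Pcdhb13, high in normoxic replicate 2 alone, did not pass it. How far the filter sets the medians, calls and non-overlaps of the isoforms was not tested. By cluster, the isoforms lower than in the embryo were 3 of 13 alpha, 10 of 20 beta and 9 of 21 gamma in hypoxia, and 2, 5 and 5 in normoxia. Every normoxic library was below every embryonic one for 31 of the 54 isoforms (background 32.1%), and every hypoxic library for 47 (background 36.3%). Pcdhb9 was the isoform higher in normoxia than in the embryo, where it was at 1.23 to 8.99 CPM, with a log2 difference of 3.24 (SE 0.78, edgeR adjusted p = 0.0412). The call was lost without normoxic replicate 1, the library with 63.1 CPM, or any 1 embryonic library, and the difference ranged from 1.66 to 3.94 over the alternatives. It was also lost without the low-count filter and with replicate number as a block.

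Pcdhga3 and Pcdhb19 were low at P12 in both conditions. Pcdhga3 was at 5.54 to 9.76 CPM in the embryo and had 3 counts over the normoxic and 2 over the hypoxic pair, ratios of 160.0 lower (54.65 to 776.4, edgeR adjusted p = 0.00778) and 219.1 lower (60.56 to 1811, edgeR adjusted p = 0.00539). Pcdhb19 was at 5.63 to 11.3 CPM in the embryo and had 4 and 2 counts over those pairs, ratios of 141.8 lower (55.32 to 521.1, edgeR adjusted p = 0.0106) and 259.0 lower (71.62 to 2140, edgeR adjusted p = 0.00648). Pcdhga1, Pcdha9 and Pcdhb2 had 0 counts in all 4 P12 libraries and were called lower in both groups, Pcdhga1 being at least 23.1-fold lower in normoxia and 21.1-fold in hypoxia. In the same direction in both groups were Pcdhga4, Pcdhgb2, Pcdha12, Pcdhb4, Pcdhb5 and Pcdhb16. Called lower in normoxia alone was Pcdhgb5, and in hypoxia alone Pcdha7, Pcdhb6, Pcdhb7, Pcdhb9, Pcdhb15, Pcdhb17, Pcdhga7, Pcdhga8, Pcdhga12, Pcdhgb1 and Pcdhgb4, though a call in 1 group and not in the other is no test that they differ. With 0 counts in hypoxia, Pcdhb7 was at least 81.9-fold below the embryo (edgeR adjusted p = 0.0452), while normoxia held 0.222 and 14.8 CPM, 1 replicate near 0 and the other in the embryonic range of 4.65 to 15.8. The hypoxic call was lost with limma-voom, and without either hypoxic or any 1 embryonic library.

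The counts of lower calls depended on the embryonic libraries. Without any 1 of them, lower calls were 0 or 1 in normoxia and 3 or 4 in hypoxia. Without normoxic replicate 1 they were 4 in normoxia, and without normoxic replicate 2 they were 42 in hypoxia.

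**Figure D4:**
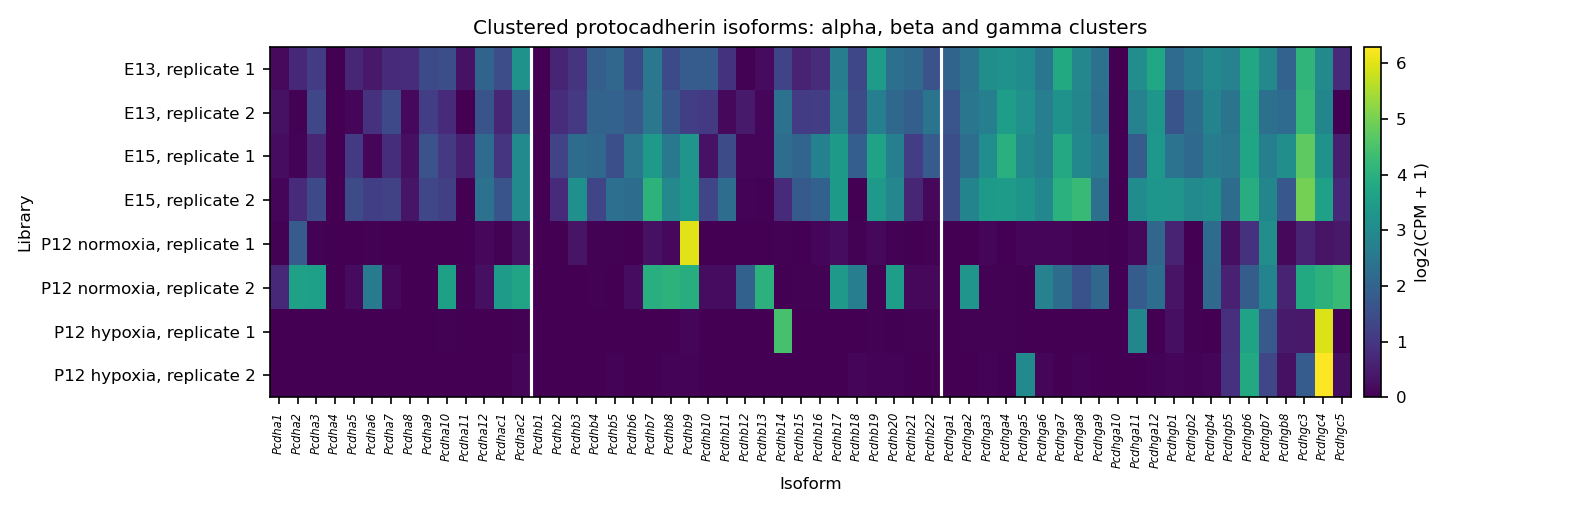
Level of each of the 58 clustered isoforms (columns, alpha, beta and gamma clusters divided by white lines) in each library (rows), coloured by log2(CPM + 1). Isoforms at or above 10 CPM number 3 to 7 in the embryonic rows, 1 and 12 in the normoxic and 3 and 2 in the hypoxic, and Pcdhgc4 is bright in both hypoxic rows.

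Between E13 and E15 no member was called by edgeR, as no gene was (background 0.0% in either direction), while at an unadjusted p under 0.05 there were 3 higher and 2 lower of 81 members, against 1.27% and 2.19% of all tested genes. The fit takes the spread of a gene from all 8 libraries, so its p-values and SEs here also carry the P12 spread. With the 4 embryonic libraries alone, edgeR called 0 members higher and 2 lower (0.49% and 0.76% of all tested genes). DESeq2 called 0 members higher and 2 lower (0.662% and 1.21% of all genes), and limma-voom 6 and 3 (1.82% and 2.87%). Pcdh9 was lower at E15 (33.0 and 26.4 CPM against 155 and 99.3), with a log2 difference of -2.10 (SE 0.44, edgeR adjusted p = 0.825). Pcdh20 and Cdh8 were higher at E15, by 2.70 (SE 0.87) and 1.51 (SE 0.54) on the log2 scale, Cdh17 was at least 15.4-fold higher, and Cdh11 was lower by -1.41 (SE 0.52), each with an edgeR adjusted p of 1.0. These 5 genes are those with an unadjusted p under 0.05 in this same comparison, and their replicates did not overlap between stages. Over all tested genes, 23.6% had both E15 libraries above both E13 libraries and 25.8% had the reverse. In the beta cluster 10 of 20 tested isoforms had both E15 libraries above both E13 libraries and 1 had the reverse, against 23.6% and 25.8% of all tested genes. Their mean level per isoform was 2.30 and 2.28 CPM at E13 and 3.90 and 3.95 at E15. By unadjusted p the first was Pcdhb9, with 2.58 and 1.23 CPM at E13 and 8.68 and 8.99 at E15 (edgeR adjusted p = 1.0).

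Of 15 tested catenins and junction partners, 6 were higher and 1 lower in normoxia than in the embryo, and 6 higher and 3 lower in hypoxia, beside 12.1% and 5.68% of all tested genes in normoxia and 13.2% and 12.9% in hypoxia. Beta-catenin (Ctnnb1), which links cadherins to the cytoskeleton and carries Wnt signals, was lower at P12: it was at 598 to 869 CPM in the embryo and 161 to 344 at P12, a fall by 1.94 in normoxia (SE 0.27, edgeR adjusted p = 0.00713) and 1.35 in hypoxia (SE 0.26, edgeR adjusted p = 0.0158). Pkp4 and Ctnnd2, delta-catenin relatives, rose, Pkp4 by 5.54 in normoxia (SE 0.48, edgeR adjusted p = 0.00145) and 6.20 in hypoxia (SE 0.50, edgeR adjusted p = 0.000960). Jup (plakoglobin) was the partner called between conditions, at 9.43 and 25.2 CPM in normoxia and 0.135 and 0.407 in hypoxia (log2 difference -5.99, SE 1.04, edgeR adjusted p = 0.0455).

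Of 16 regulators of the clustered genes, which include the CTCF and cohesin proteins that bring an enhancer to the chosen promoter, 4 were higher and 1 lower in normoxia than in the embryo, and 6 higher and 2 lower in hypoxia, beside the same shares of all tested genes. Wiz, a zinc finger protein that works with CTCF, was the one called between conditions: it was at 92.3 to 109 CPM in the embryo, 28.4 and 20.01 in normoxia and 0.471 and 1.07 in hypoxia, with a log2 difference of -4.97 from normoxia (SE 0.62, edgeR adjusted p = 0.0232). Ctcf was at 108 to 153 CPM in the embryo, 87.2 and 51.7 in normoxia and 8.21 and 22.4 in hypoxia. Its hypoxic values lay below those of every other library, by -3.09 from the embryo (SE 0.57, edgeR adjusted p = 0.0142) and by -2.18 from normoxia (SE 0.58, edgeR adjusted p = 0.140). The cohesin subunits Rad21 and Smc3 were called higher in both P12 groups than in the embryo, while Smc1a, Stag1 and Stag2 were not called. Rad21 rose by 1.19 in normoxia (SE 0.29, edgeR adjusted p = 0.0412) and 2.16 in hypoxia (SE 0.29, edgeR adjusted p = 0.00504). Dnmt3a, the DNA methyltransferase, was at 13.2 to 48.9 CPM in the embryo and 445 to 734 at P12, higher by 4.94 in normoxia (SE 0.31, edgeR adjusted p = 0.000515) and 4.41 in hypoxia (SE 0.31, edgeR adjusted p = 0.000665).

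Cadherin-related genes outside the symbol rule (13 tested) and cleavage and signalling partners (13 tested) had 1 and 0 calls between conditions (background 3.02%). The 1 was Clstn3, a synaptic calsyntenin, at 13.4 and 94.4 CPM in normoxia and 0 and 0.0740 in hypoxia (edgeR adjusted p = 0.0461). Psenen, a subunit of the gamma-secretase that cuts cadherins, rose by 2.68 in normoxia (SE 0.38, edgeR adjusted p = 0.00788) and 2.93 in hypoxia (SE 0.38, edgeR adjusted p = 0.00456) against the embryo.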

How the data were processed

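Each of the 8 deposited files holds whole-number counts for 1 library, unnormalised. Per the submitters' processing notes, cutadapt, STAR and Subread were used with GRCm38. The annotation, strand setting and handling of shared reads are not given in the sources used here, so isoforms and antisense neighbours with common exons cannot be fully resolved. Rows without a gene name (1980 of 55487, with 0.205% to 0.266% of counts) were left out. After TMM scaling, filterByExpr (minimum count 10, minimum total 15) kept 19936 genes, among them 81 of 93 members. edgeR 4.0.16 (R 4.3.3) fitted the 4 groups by quasi-likelihood (4 residual degrees of freedom), with two-sided tests, Benjamini-Hochberg adjustment across every tested gene, a threshold of 0.05, and the SE taken from F. DESeq2 1.42.0 and limma 3.58.1 served as alternatives. Counting intervals (95%, exact) and bounds (3 counts per library for a group at 0) cover counting error only. Exon overlap came from GENCODE M21, promoters from RefSeq. Genes were named by class, call and rank of p. Members, lists and rules were chosen with earlier results of these data known.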

Additional observations from a re-analysis of the deposited data

How the results depend on the processing

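Over the 72 member log2 fold changes recomputed under up to 17 alternatives, none changed direction, while the numbers of calls depended on the tool and on the libraries. The 72 were picked from these same data as the members called by edgeR. Between conditions and between stages, the 4 of smallest p among cadherins, single protocadherins and clustered isoforms each were added. Their constant direction therefore says little about the other members. For hypoxia against normoxia (0 higher, 2 lower), DESeq2 gave 4 higher and 24 lower (6.87% and 13.1% of all tested genes). With limma-voom and with the 4 P12 libraries alone there were 0 lower (0.0% of all tested genes each). DESeq2 on the P12 libraries, an alternative added after the data had been seen, gave 5 lower (8.4%). Between E15 and E13 (0 and 0), limma-voom gave 6 and 3 (1.82% and 2.87% of all tested genes) and DESeq2 2 lower (1.21%). The 4 embryonic libraries alone gave 2 lower (0.76%), and DESeq2 on those 14 and 8 (5.76% and 6.77%). For normoxia against the embryo (3 and 16), DESeq2 gave 7 and 29 (20.7% and 15.7% of all tested genes) and no filter 1 and 6 (6.17% and 1.87%). The compared libraries alone gave 7 higher (19.3%), and DESeq2 on them 11 and 34 (27.0% and 21.8%). Lower calls were 8 with limma-voom (3.83%) and 10 with the filter of 5 CPM in 2 libraries (6.96%). For hypoxia against the embryo (2 and 27), DESeq2 gave 9 and 49 (22.4% and 22.7% of all tested genes) and limma-voom 1 and 0 (9.91% and 2.08%). The compared libraries alone gave 4 and 42 (16.3% and 20.5%), and DESeq2 on them 7 and 50 (25.0% and 27.0%). The cause was not tested.

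Leaving out 1 library at a time, with the lone library of its group assumed to vary like the others, gave 0 to 2 higher and 0 to 13 lower between conditions, 0 and 0 between stages, 0 to 5 and 0 to 21 for normoxia, and 0 to 4 and 3 to 42 for hypoxia against the embryo. With replicate number as a block, 0 members were called lower between conditions (0.005% of all tested genes). Against the embryo, 0 were higher and 3 lower in normoxia (7.23% and 1.32%), and 1 higher and 12 lower in hypoxia (8.82% and 5.57%). The main fit did not treat replicate numbers as a pairing. Deviations of libraries with equal numbers correlated at -0.0444 to 0.0137 over 6 pairs of groups, which cannot settle whether libraries were collected in pairs. Upper-quartile scaling moved the median log2 difference of all genes from 0.0 to -0.10 (conditions), from -0.04 to -0.24 (normoxia) and from -0.43 to -0.75 (hypoxia), and relative log expression scaling the last to -0.22. At 30 counts as the minimum, hypoxic and normoxic replicate 1 each held 5 isoforms, and at 3 counts normoxic replicate 1 held 20. Precision is limited by 2 libraries per group. The P12 replicates differed more than the embryonic ones, and the part of depth was not tested. The part of the RNA input (400 pg) in counts near 0 and in differing replicates was not tested.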
